A study of Rattus norvegicus with 48 samples.

Results

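The let-7 family was described across 4 parts of the rat nephron as 9 mature miRNAs: the 8 guide arms rno-let-7a-5p, rno-let-7b-5p, rno-let-7c-5p, rno-let-7d-5p, rno-let-7e-5p, rno-let-7f-5p, rno-let-7g-5p and rno-let-7i-5p, together with rno-let-7d-3p, the opposite arm of the let-7d hairpin. They were chosen by name, as every let-7 5p column and the let-7d-3p column among the 188 miRNAs of the table. Earlier results of these data were known when they were chosen. Small RNA was sequenced from laser-captured proximal tubule (3 rats), glomerulus (2 rats), thick ascending limb (3 rats) and collecting duct (3 rats). All tissue came from the same 3 untreated male Sprague-Dawley rats, which were 6 months old. Proximal tubule was recognised by an antibody to glutathione-S-transferase, the thick ascending limb by one to Tamm-Horsfall protein, the collecting duct by one to aquaporin-2, and glomeruli by a histochemical stain, so each segment holds whatever lay inside the captured outline. No treated or diseased kidney was included, and the comparisons are between segments.

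MicroRNAs are cut as a pair of arms from a hairpin precursor, and one arm, the guide, is usually retained by Argonaute while the other, the passenger, is mostly discarded. The guide finds messenger RNAs through its seed, the bases just after its first, and lowers their translation and stability. let-7 was found in Caenorhabditis elegans as a switch of larval timing, and in mammals it is a family of closely related genes that accumulates as cells differentiate. It represses growth and stemness genes such as Hmga2, Ras genes and Lin28, and the Lin28 proteins in turn block let-7 maturation. In the developing mouse kidney, Lin28b and let-7 help set when nephron formation ends.

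The sequences show how little separates the guide arms, and are given 5′ to 3′ from RefSeq on the rat assembly GRCr8, with the seed (bases 2 to 8) in capitals.
rno-let-7a-5p: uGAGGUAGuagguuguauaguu
rno-let-7b-5p: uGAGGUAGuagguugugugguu
rno-let-7c-5p: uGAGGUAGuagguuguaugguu
rno-let-7d-5p: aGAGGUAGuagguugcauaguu
rno-let-7e-5p: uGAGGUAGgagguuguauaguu
rno-let-7f-5p: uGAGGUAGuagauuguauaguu
rno-let-7g-5p: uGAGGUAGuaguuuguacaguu
rno-let-7i-5p: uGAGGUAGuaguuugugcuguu
rno-let-7d-3p: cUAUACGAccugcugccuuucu
All 8 guide arms are 22 bases long and carry 1 seed, so a target site read by the seed alone would be shared by all of them. Of the 172 columns of the table that matched RefSeq by name, 9 held this seed, the 8 guide arms and miR-98-5p, whose gene is also counted in the family. Counted from 1 at the 5′ end and from the let-7a base, let-7c differs by A19G, let-7e by U9G and let-7f by G12A. let-7b carries A17G and A19G, let-7d carries U1A and U16C, and let-7g carries G12U and U18C. let-7i is the most distant from let-7a, with G12U, A17G, U18C and A19U. Among the 28 pairs of guide arms, 4 differ at 1 base, which is where an aligner that tolerates a mismatch could exchange reads between columns.

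All 9 members matched RefSeq. let-7d-3p has another seed, and comes from the same precursor as let-7d-5p. The hairpin Mirlet7d lies at chr17:16322260-16322357 on the plus strand of GRCr8 and is printed with both arms in capitals, the 5p arm first.
Mirlet7d: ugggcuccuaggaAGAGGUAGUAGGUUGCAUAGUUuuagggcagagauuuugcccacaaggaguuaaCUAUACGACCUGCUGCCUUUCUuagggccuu
The let-7a, let-7c and let-7f arms are each encoded by 2 rat genes, so their values pool the products of 2 loci. The genes of let-7a-1, let-7f-1 and let-7d stand together on chromosome 17, spanning 2204 bases between the outer arms, within the span of 1 long noncoding RNA gene. let-7c-2 and let-7b are neighbours on chromosome 7 (484 bases), and let-7i stands alone elsewhere on that chromosome. let-7e lies between miR-99b and miR-125a on chromosome 1 (679 bases), within the span of Spaca6, which encodes a sperm protein. let-7g lies within the spans of Wdr82 and Rpl29 on chromosome 8, and let-7f-2 lies beside miR-98 within Huwe1 on chromosome X.

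One column needs care before any level is read. rno-let-7a-5p and rno-miR-3596a held equal values in 44 of 44 sequencing runs. miR-3596a is annotated on the strand opposite the let-7a-2 gene, at chr8:50805219-50805240 on the minus strand of GRCr8, and its sequence is the exact reverse complement of let-7a-5p.
rno-miR-3596a: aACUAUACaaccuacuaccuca
Among the 172 columns that matched RefSeq by name, 5 pairs were exact reverse complements, and 4 of the 5 held equal values in every run. When the values were turned back into reads, let-7a came out as a whole number in 24 of 44 runs and as a whole number or one ending in 0.5 in all 44. The other 8 let-7 members were whole in 44 of 44 runs, within a tolerance of 0.03 reads. Whether the let-7a column holds all let-7a reads or an even share of them is not given in the sources used here, so its level is printed both as deposited and with both columns summed. The choice moved no let-7a call: it stood 0.64 above the other segments in proximal tubule as deposited and 0.65 above them with both columns summed, and was called under neither.

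The values are the authors' normalized counts, averaged over 4 flow cells for each library, and n counts rats. Summed over the flow cells, the 11 libraries held between 147996 and 1296995 reads, and let-7d-3p, the scarcest member, rested on 112 to 2227 reads per library. The rat 3 glomerulus stood apart before any test: its values sum to 77457, against up to 255518 elsewhere, and its guide arms lay between 129 and 829, below every other library for each of the 8. The segment labels were checked on marker miRNAs. The proximal tubule list (miR-192-5p, miR-194-5p and miR-204-5p, 3 of 4 listed) summed to 21200 to 26400 in proximal tubule and to 803 to 4310 elsewhere. The epithelial list (miR-200 family, 4 of 5) summed to 36.1 to 128 in glomeruli and to 412 to 1600 in the tubule segments. The endothelial list (2 of 3) reached 4300 to 6290 in glomeruli and 1160 to 3170 elsewhere, the smooth muscle and mesangial list (2 of 3) 10400 to 16400 and 4780 to 8080, and the leukocyte list (3 of 5) 78.7 to 117 in glomeruli and 25.1 to 123 elsewhere, with miR-155-5p at 0 in glomeruli. Of the red cell and platelet list, 0 of 4 were columns of the table. The part of these cell types in the let-7 differences was not tested. A lower value in bulk tissue can mean fewer cells that make the miRNA or less of it per cell, and these cannot be told apart.

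let-7c and let-7f were the leading members everywhere. let-7c-5p read 3066, 3271 and 3043 in the proximal tubules of rats 1, 2 and 3, 3082 and 666 in the glomeruli of rats 1 and 3, 2608, 2040 and 2794 in thick ascending limb, and 2925, 4165 and 2856 in collecting duct. It averaged 3127 ± 126 in proximal tubule, 1874 ± 1709 in glomerulus, 2481 ± 393 in thick ascending limb and 3315 ± 737 in collecting duct (SD, n = 3, 2, 3 and 3). let-7f-5p averaged 3637 ± 1370, 2055 ± 1733, 2394 ± 722 and 2808 ± 773 in the same order, from 3269, 2488 and 5154, from 3280 and 829, from 2211, 1781 and 3190, and from 2562, 3674 and 2188. The groups of let-7f overlapped. For let-7c, all 3 thick ascending limb values lay below all 6 of the other tubule libraries and between the 2 glomeruli. Its proximal tubule and collecting duct values overlapped. let-7c and let-7f held the first 2 places among the guide arms in 11 of 11 libraries, let-7c first in 6 and let-7f first in 5, so neither was always above the other. In the table of 188, let-7c ranked between 9 and 16 and let-7f between 9 and 14. Neither was called in a test over the 4 segments.

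Behind them the order changed with the segment. As deposited, rno-let-7a-5p read 621, 677 and 907.5 in proximal tubule, 986 and 166 in glomerulus, 399, 404 and 499 in thick ascending limb, and 536, 696 and 485 in collecting duct. In that form let-7a was the lowest guide arm in 7 libraries. let-7g was the lowest in the other 4, which were both glomeruli and the rat 1 and rat 3 collecting ducts. With both of its columns summed, let-7a averaged 1470 ± 304 in proximal tubule, 1152 ± 1160 in glomerulus, 868 ± 113 in thick ascending limb and 1145 ± 221 in collecting duct, and stood between place 3 and place 6. Together the 8 guide arms made up 7.33 ± 0.54% of the table's summed value in proximal tubule, 5.86 ± 0.07% in thick ascending limb and 5.63 ± 0.13% in collecting duct (SD, n = 3 each). In glomeruli the share was 7.86% in rat 1 and 3.68% in rat 3. All 3 proximal tubule libraries lay above all 6 of the other tubule libraries, while the rat 1 glomerulus lay above and the rat 3 glomerulus below all 9 tubule libraries. With let-7a from both columns the shares were 7.74 ± 0.56%, 6.17 ± 0.08% and 5.91 ± 0.14% in the 3 tubule segments, in the same order. This share depends on the rest of the table: miR-10a-5p alone took 25.1 ± 2.0% of the summed value in proximal tubule, 49.2 ± 0.7% in thick ascending limb and 47.0 ± 3.4% in collecting duct.

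**Figure D1:**
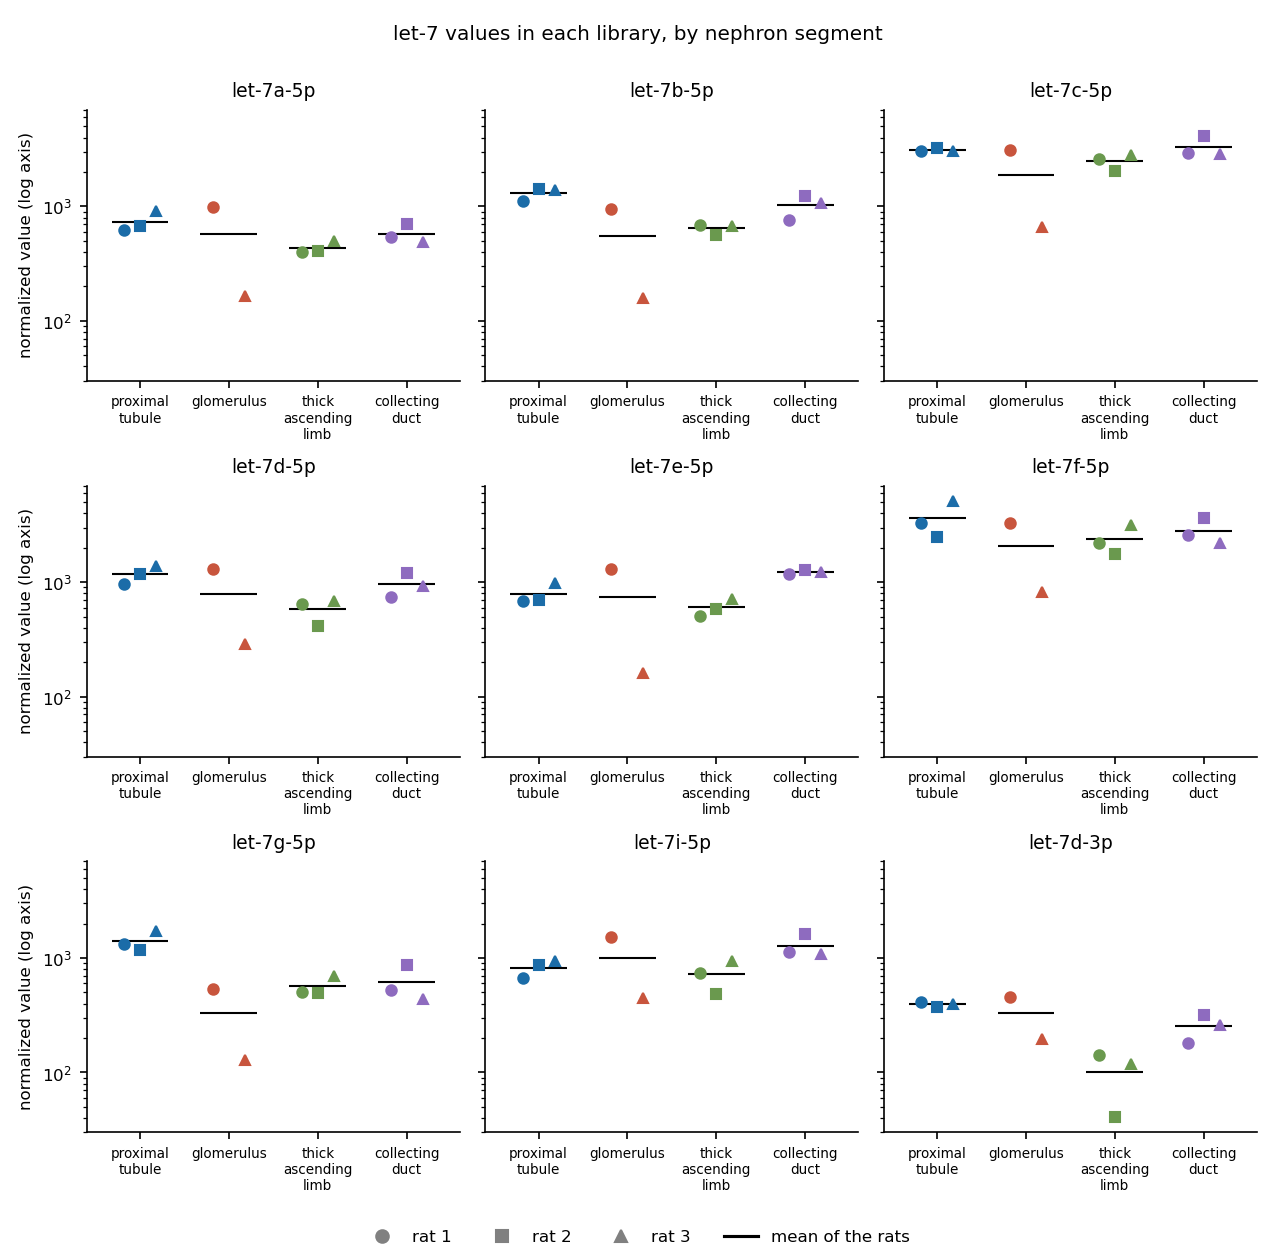
Normalized values (log axis) of the 9 let-7 members in each of 11 libraries, by nephron segment; symbols are rats and the bar is the mean over rats. let-7g-5p lies between 1176 and 1706 in proximal tubule, above every other library, and let-7d-3p lies between 40.5 and 142 in thick ascending limb, below every other library.

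The segments were first compared all at once, with limma on log2(value + 1), the rat as a block, and Benjamini-Hochberg adjustment over all 188 miRNAs. By this F-test 3 of 9 members differed among the 4 segments at an adjusted p under 0.05, against 24.5% of all miRNAs. They were let-7g-5p (limma adjusted p = 0.0015), let-7d-3p (0.0029) and let-7b-5p (0.034). The let-7g call was lost in 3 of 35 alternatives and the let-7d-3p call in 5. The let-7b call was lost in 19 of 35, among them the rat as a random effect (limma adjusted p = 0.058), median of ratios (0.061) and the same total (0.062). let-7e-5p had an unadjusted p of 0.037 and an adjusted p of 0.11, and the other 5 members had adjusted p values between 0.22 and 0.49. The 4 contrasts of a segment with the rest and the 6 pairs that follow use the same 11 libraries and share values with each other. In this fit the prior degrees of freedom were infinite, so each variance was taken from the trend of variance with level over all miRNAs. An SE therefore does not show a member's own spread between rats.

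let-7g-5p was highest in the proximal tubule. It read 1313, 1176 and 1706 in the proximal tubules of rats 1, 2 and 3, then 537 and 129 in the glomeruli of rats 1 and 3. It read 503, 498 and 702 in thick ascending limb and 522.5, 875 and 440 in collecting duct. All 3 proximal tubule values lay above all 8 others, and the other 3 segments overlapped one another. In order, let-7g averaged 1398 ± 275 in proximal tubule, 612.5 ± 231 in collecting duct, 568 ± 117 in thick ascending limb and 333 ± 288 in glomerulus, and no pair among the last 3 was called. In proximal tubule it was 3.10-fold above the mean of the other 3 segments (log2 1.63 ± 0.39 SE, limma adjusted p = 0.00074). It was the 1 of 9 members called there, against 12.8% of all miRNAs. Without the proximal tubule of rat 3 the value was 1.26 (limma adjusted p = 0.14), and without the rat 3 glomerulus it was 1.25 (limma adjusted p = 0.00011).

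The median of all 188 miRNAs was itself 0.36 above 0 on the log2 scale in that contrast. Under the 3 other scalings (median of ratios, same total and quantile), that median lay between −0.03 and 0.22. let-7g then stood 1.20 to 1.39 above the other segments, with limma adjusted p values from 0.00016 to 0.0069. The rest of the guide arms were not called in proximal tubule. let-7b-5p was next (1.03 ± 0.39, limma adjusted p = 0.061), and let-7i-5p, at −0.14 ± 0.39, was the only one of the 8 below 0. let-7i was called lower under median of ratios (−0.53, limma adjusted p = 0.027) and quantile normalization (−0.77, 0.016), and let-7b was called higher under median of ratios (0.64, 0.042) and the same total (0.79, 0.02). The guide arms had a median of 0.67 in this contrast.

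In glomerulus, 2 of 9 members were called against the mean of the other 3 segments, beside 19.7% of all miRNAs. let-7g-5p was lower by −1.52 ± 0.47 (limma adjusted p = 0.011) and let-7b-5p by −1.24 ± 0.46 (limma adjusted p = 0.044). let-7b read 947 and 160 in the glomeruli of rats 1 and 3, against 1118, 1408 and 1398 in proximal tubule, 691, 568 and 673 in thick ascending limb, and 765, 1237 and 1073 in collecting duct. The rat 1 glomerulus thus lay within the range of the tubule libraries, and the rat 3 glomerulus below all of them. Without the rat 3 glomerulus, let-7b stood at 0.18 (limma adjusted p = 0.85) and let-7g at −0.38 (limma adjusted p = 0.62), so both calls and the direction of let-7b rest on that library. The let-7g call was also lost without the rat 3 proximal tubule (−1.34, limma adjusted p = 0.055) or thick ascending limb (−1.33, limma adjusted p = 0.054), and the let-7b call was lost in 15 of 28 alternatives.

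All 8 guide arms were below 0 in glomerulus as deposited, with a median of −0.85, while the median of all miRNAs was −0.56. Under the 3 other scalings 2 or 3 of the 8 were above 0 and their median lay between −0.36 and −0.24. The sign of those 2 or 3 arms changed with the scale of the libraries. Against single segments, let-7g-5p was 5.13-fold higher in proximal tubule than in glomerulus (2.36 ± 0.54, limma adjusted p = 0.00019) and let-7b-5p 3.25-fold higher (1.70 ± 0.54, limma adjusted p = 0.012). These were 2 of 9 members, against 17.6% of all miRNAs, and the median of all miRNAs was 0.77 in that pair. Without the rat 3 glomerulus they were 1.23 (limma adjusted p = 0.056) and 0.28 (limma adjusted p = 0.83). The let-7b difference was also not called without the rat 2 (1.68) or the rat 3 proximal tubule (1.41).

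Glomerulus against thick ascending limb called 0 of 9 members, with 11.2% of all miRNAs called. One member had an unadjusted p under 0.05 in that limma contrast, let-7d-3p (1.63 ± 0.60, adjusted p = 0.054). let-7d-3p was called there in 10 of 28 alternatives, among them median of ratios (1.81, limma adjusted p = 0.0017), the same total (1.96, 0.00067) and quantile normalization (1.96, 0.0075). let-7g-5p was called lower in glomerulus under median of ratios (−0.88, limma adjusted p = 0.023) and quantile normalization (−1.11, 0.043), and let-7b-5p under quantile normalization (−0.85, 0.044). Against collecting duct, 0 of 9 were called, beside 14.9% of all miRNAs, and 4 had an unadjusted p under 0.05 by limma. Those nearest to the threshold were let-7e-5p (−1.42 ± 0.54, adjusted p = 0.051) and let-7b-5p (−1.33 ± 0.54, adjusted p = 0.071). In this pair too, calls appeared under alternatives. let-7b-5p was called lower under quantile normalization (−0.99, limma adjusted p = 0.018) and let-7e-5p with a pseudocount of 0.5 (−1.426, 0.045). let-7d-3p was called higher under the same total (1.017, limma adjusted p = 0.049). The glomeruli were the least even group. Taking the median over the members of the SD between rats in log2 units, it was 1.53 in glomerulus, against 0.27 to 0.35 in the tubule segments, and 0.12 between the 4 flow cells of a library. let-7d-3p departed from this. Its SD between rats was 0.965 in thick ascending limb, the largest of the members there, and 0.874 in glomerulus.

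**Figure D2:**
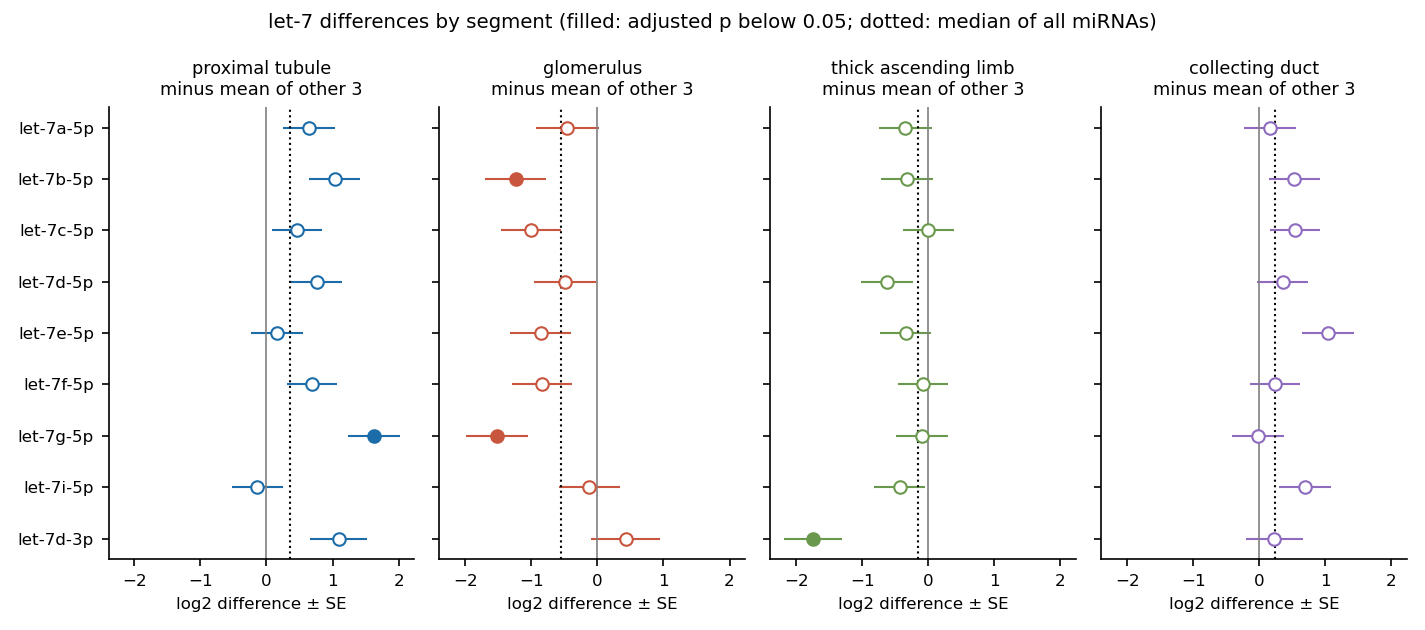
Differences (log2, ± SE, limma) of each let-7 member between 1 segment and the mean of the other 3, in 4 panels; filled points passed an adjusted p of 0.05, and the dotted line is the median of all 188 miRNAs. let-7g-5p is filled in proximal tubule at 1.63 and, with let-7b-5p, in glomerulus at −1.52 and −1.24, and let-7d-3p in thick ascending limb at −1.75.

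let-7d-3p was lowest in thick ascending limb. It read 142, 40.5 and 120 in the thick ascending limbs of rats 1, 2 and 3, against 411, 370 and 397 in proximal tubule, 460 and 197 in glomerulus and 181, 316 and 260 in collecting duct. Every thick ascending limb value lay below every other value. Against the other 3 segments together it stood at −1.75 ± 0.43 in thick ascending limb (limma adjusted p = 0.006) and was the 1 of 9 members called, where 2.13% of all miRNAs were called. An earlier analysis of these data had already shown let-7d-3p lower there. This value repeats that result, so the p is not a fresh test. The call was lost in 8 of 28 alternatives, among them without rat 1 (−1.90) or without rat 2 (−1.19, limma adjusted p = 0.73). It was not called without the thick ascending limb of rat 1 (−2.03, limma adjusted p = 0.078) or rat 2 (−1.19, 0.47). Nor was it called without the rat 2 proximal tubule (−1.68, limma adjusted p = 0.093) or collecting duct (−1.53, 0.083). It stood at −1.97 without the rat 3 glomerulus.

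By pairs, let-7d-3p was 4.37-fold higher in proximal tubule than in thick ascending limb (2.13 ± 0.52, limma adjusted p = 0.0016). It was the 1 of 9 members called, against 7.98% of all miRNAs. It was 1.65 to 1.82 higher under the 3 other scalings, called in each. Between thick ascending limb and collecting duct it stood at −1.48 ± 0.52 (limma adjusted p = 0.10), and 0 of 9 members were called there, where 2.13% of all miRNAs were. 2 members had an unadjusted p under 0.05 in that contrast. The rat 2 thick ascending limb held 112 reads of let-7d-3p, the fewest, and without it the proximal tubule difference was 1.501 (limma adjusted p = 0.19). Without the rat 2 proximal tubule it was 1.98 (limma adjusted p = 0.095).

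In glomerulus let-7d-3p was not called. It was 0.43 ± 0.52 above the other segments (limma adjusted p = 0.62) while all 8 guide arms were below 0. Under the 3 other scalings it was 0.92 to 1.09 above them, with limma adjusted p values between 0.02 and 0.044, so this call depended on the scale. As deposited but without the rat 3 glomerulus it stood at 1.09 (limma adjusted p = 0.15). As a share of the table, let-7d-3p made up 0.279% and 0.254% of the summed value in the 2 glomeruli and 0.226 ± 0.045% in proximal tubule, against 0.120 ± 0.020% in collecting duct and 0.068 ± 0.032% in thick ascending limb.

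A ratio of arms within a library does not depend on how that library is scaled. For every 100 of let-7d-5p there were 42.8, 31.3 and 28.5 of let-7d-3p in the proximal tubules of rats 1, 2 and 3. There were 35.7 and 67.8 in the glomeruli of rats 1 and 3, 22.1, 9.80 and 17.6 in thick ascending limb, and 24.5, 26.4 and 27.9 in collecting duct. All 3 thick ascending limbs lay below all other libraries, and the lowest ratio was in rat 2, the library with the fewest let-7d-3p reads. The guide arm let-7d-5p also had its lowest mean in thick ascending limb, at 642, 414 and 679, against 960, 1180 and 1393 in proximal tubule, 1292 and 291 in glomerulus, and 741, 1197 and 932 in collecting duct. All 3 lay below all 6 of the other tubule libraries and between the 2 glomeruli. The means were 578.5 ± 144 in thick ascending limb, against 1178 ± 216 in proximal tubule, 791 ± 708 in glomerulus and 957 ± 229 in collecting duct. These ratios were looked at after the values were known and carry no test.

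Other passenger arms of the family were scarce. let-7b-3p averaged 37.1 ± 6.2 in proximal tubule, 34.2 ± 20.5 in glomerulus, 16.8 ± 4.6 in thick ascending limb and 59.5 ± 17.3 in collecting duct. That is 2.84 ± 0.36, 8.74 ± 5.09, 2.57 ± 0.47 and 6.34 ± 3.47 for every 100 of let-7b-5p. The passenger to guide ratio of let-7d was above that of let-7b in each of the 11 libraries. let-7a-1-3p and let-7c-2-3p, which share 1 sequence, and let-7e-3p were at 16.5 or below in every library, too low for a comparison.

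let-7e-5p had its highest mean in collecting duct. It read 1174, 1270 and 1232 there, against 685, 702 and 976 in proximal tubule, 1313 and 162.5 in glomerulus, and 511, 581 and 713 in thick ascending limb. All 3 collecting ducts lay above all 6 of the other tubule libraries, but the rat 1 glomerulus was higher still. Against the mean of the other 3 segments let-7e was 2.06-fold higher (1.04 ± 0.39, limma adjusted p = 0.060). No member was called in collecting duct, beside 12.2% of all miRNAs, and let-7e was the 1 of 9 with an unadjusted p under 0.05 by limma. Proximal tubule against collecting duct also called 0 of 9, where 10.1% of all miRNAs were called, with let-7g-5p nearest and the 1 member with an unadjusted p under 0.05 (1.23 ± 0.47, limma adjusted p = 0.079).

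Because the 2 glomeruli differ so widely and share 1 estimate of spread with the tubules, the 3 tubule segments were also fitted alone. By the F-test 5 of 9 members were then called, against 27.7% of all miRNAs: let-7d-3p (limma adjusted p = 2.7e-07), let-7g-5p (0.0001), let-7d-5p (0.0095), let-7e-5p (0.011) and let-7b-5p (0.012). Between proximal tubule and thick ascending limb 4 of 9 were called, all higher in proximal tubule, against 20.7% of all miRNAs. They were let-7d-3p (2.13 ± 0.36, limma adjusted p = 3e-07), let-7g-5p (1.30 ± 0.30, 0.00029), let-7d-5p (1.04 ± 0.30, 0.0058) and let-7b-5p (1.02 ± 0.30, 0.0065). The median of all miRNAs was 0.37 in that pair. These SEs also draw on the trend of variance over all miRNAs, so they need not show a member's own spread between rats. For let-7d-3p the SD between rats was 0.965 in thick ascending limb and 0.0663 in proximal tubule, in log2 units. In the fit over 4 segments, the SE of let-7d-3p in this pair was 0.52 with the variance trend and 0.64 without it. Without the trend the call was lost (limma adjusted p = 0.1). The 3 tubule segments alone were not fitted without the trend. Between proximal tubule and collecting duct let-7g-5p was the 1 called (1.23 ± 0.30, limma adjusted p = 0.00063), against 21.8% of all miRNAs.

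let-7i-5p read 672, 865 and 935 in proximal tubule, 1541 and 447 in glomerulus, 734, 487 and 949 in thick ascending limb, and 1128, 1611 and 1080 in collecting duct. Its collecting duct values lay above all 6 of the other tubule libraries. Between thick ascending limb and collecting duct, 3 of 9 members were lower in the tubules alone, beside 13.8% of all miRNAs. They were let-7d-3p (−1.48 ± 0.36, limma adjusted p = 0.0013), let-7e-5p (−1.04 ± 0.30, 0.009) and let-7i-5p (−0.84 ± 0.30, 0.041). The median of all miRNAs was −0.36 in that pair. Rescaled within the tubules by median of ratios, same total or quantile, none of these 3 was called; let-7e lay between −0.56 and −0.44 and let-7d-3p between −1.01 and −0.88. By contrast, let-7g-5p between proximal tubule and collecting duct (1.11 to 1.46) and let-7d-3p between proximal tubule and thick ascending limb (1.67 to 1.82) were called under all 3. let-7g-5p between proximal tubule and thick ascending limb was called under 2 of the 3 and stood at 0.69 under quantile normalization (limma adjusted p = 0.076). In that pair let-7b-5p and let-7d-5p stood at 0.56 and 0.58 under median of ratios, both called, and at 0.26 (limma adjusted p = 0.28) and 0.29 (0.31) under quantile normalization.

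Other members of the proximal tubule and collecting duct pair also moved with the scale. let-7e-5p and let-7i-5p were called lower in proximal tubule under median of ratios (−0.63, limma adjusted p = 0.018, and −0.60, 0.014) and quantile normalization (−0.84, 0.0073, and −0.83, 0.013). Under the same total, let-7a-5p, let-7b-5p, let-7d-5p, let-7f-5p and let-7d-3p were called higher, by 0.53 to 0.88. For the fits rescaled within the tubules, the share of all miRNAs called is not given, so these calls show no change particular to let-7. In the fit over 4 segments, the median of all miRNAs in this pair was 0.374 under the same total. That median was 0.145 under median of ratios and 0.00241 under quantile normalization. With the tubules as deposited and rat 1 left out, limma called 0 of 9 members by the F-test and in 0 of 27 tests by pairs, where 4 of 9 and 9 of 27 had an unadjusted p under 0.05. Of all miRNAs, 3.72% were called there by the F-test and 2.48% of all tests by pairs.

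With the rat 1 glomerulus kept as the only glomerulus, taken to vary like the other segments, 7 of 9 F-tests, 8 of 36 tests against the rest and 13 of 54 pairs were called by limma, against 37.2%, 16.5% and 16.3% of the tests of all miRNAs. Of the 8, 6 were lower values in thick ascending limb, where 18.1% of all miRNAs were called and their median was −0.42: let-7d-3p, let-7d-5p (−1.04, limma adjusted p = 0.0027), let-7e-5p (−0.90, 0.0092), let-7a-5p (−0.82, 0.022), let-7b-5p (−0.80, 0.022) and let-7i-5p (−0.78, 0.025). The rat 1 glomerulus then stood above thick ascending limb by 1.33 for let-7a-5p, 1.34 for let-7d-5p, 1.30 for let-7e-5p and 1.26 for let-7i-5p, with limma adjusted p values between 0.024 and 0.03. With let-7d-3p (2.29), 5 of 9 members were called higher, against 19.1% of all miRNAs. With the rat 3 glomerulus kept in its place, 6 of 9 were called lower, against 23.4% of all miRNAs. They were let-7g-5p (−2.19, limma adjusted p = 3.5e-05), let-7b-5p (−2.10, 5.8e-05), let-7e-5p (−2.07, 7.9e-05), let-7c-5p (−1.88, 0.00022), let-7f-5p (−1.72, 0.00089) and let-7a-5p (−1.49, 0.01). With both glomeruli none of the 9 was called in that pair. The median of all miRNAs there was 0.425 with the rat 1 glomerulus alone, −1.19 with the rat 3 glomerulus alone and −0.36 with both. With either glomerulus alone, the called members thus lay on the same side of 0 as the median of the whole table. How far their values follow that shift of the whole table was not tested, so they show no change particular to let-7.

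Inside the family, the shares of the guide arms differed between segments, and shares within a library do not depend on its scale. let-7g-5p made up 10.7 ± 0.65% of the summed guide arms in proximal tubule, 6.76 ± 0.65% in thick ascending limb and 5.09 ± 0.83% in collecting duct, and 4.14% and 4.54% in the glomeruli of rats 1 and 3. let-7i-5p ran the opposite way, with 6.37 ± 0.86%, 8.45 ± 1.11%, 10.8 ± 0.24%, and 11.9% and 15.7%, in the same order. Both glomeruli had let-7i shares above all 9 tubule libraries. The let-7g share of the rat 1 glomerulus lay below all 9, while that of rat 3 lay above the rat 3 collecting duct (4.28%).

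The log2 ratio of let-7g-5p to let-7i-5p put the same point in 1 number. It was 0.97, 0.44 and 0.87 in proximal tubule, −0.55, 0.03 and −0.43 in thick ascending limb, −1.11, −0.88 and −1.29 in collecting duct, and −1.52 and −1.79 in glomerulus. The 4 segments did not overlap, and they ran from proximal tubule through thick ascending limb and collecting duct to glomerulus. This pair of arms was also the least alike of the 28 over the 11 libraries, with r = 0.38 on the log2 scale. The log2 ratio of let-7e-5p to the let-7a-5p column was 1.13, 0.87 and 1.35 in collecting duct, and between −0.03 and 0.52 in the other 8 libraries. Both pairs were picked after seeing the values and are descriptions only.

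**Figure D3:**
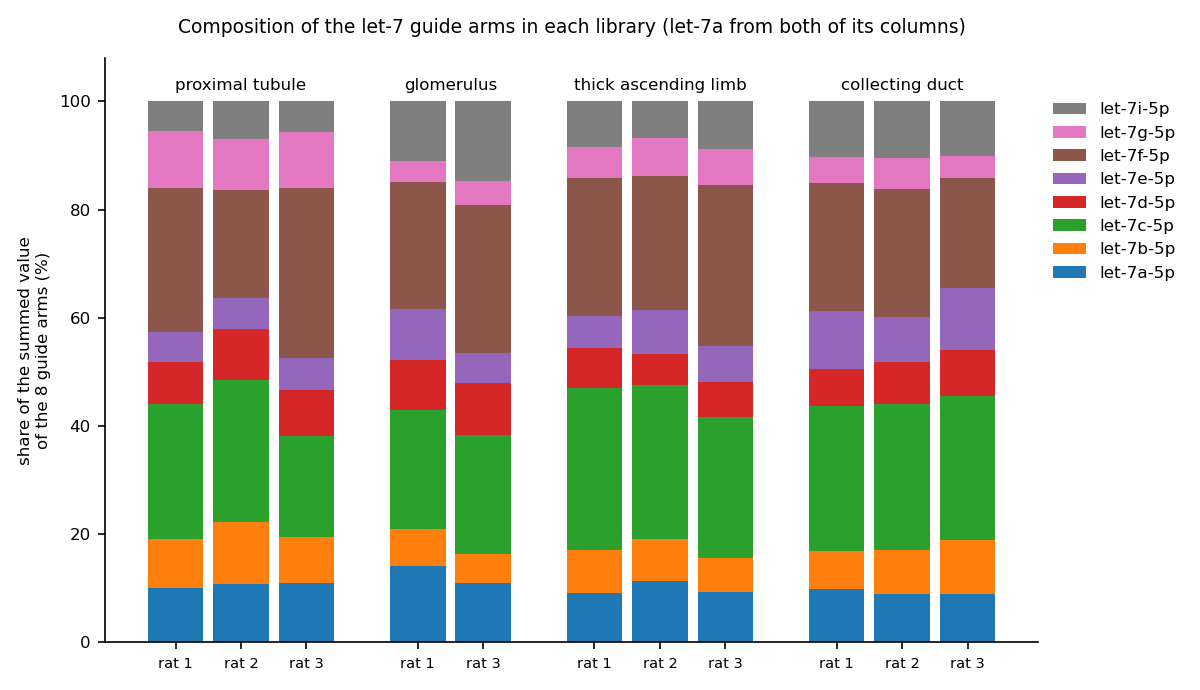
Share (%) of each let-7 guide arm in their summed value, 1 bar per library, with let-7a taken from both of its columns. With that sum, let-7g-5p makes up 9.45 to 10.7% in proximal tubule and 3.84 to 4.29% in glomerulus, and let-7i-5p 5.45 to 6.95% and 11.04 to 14.8%.

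**Figure D4:**
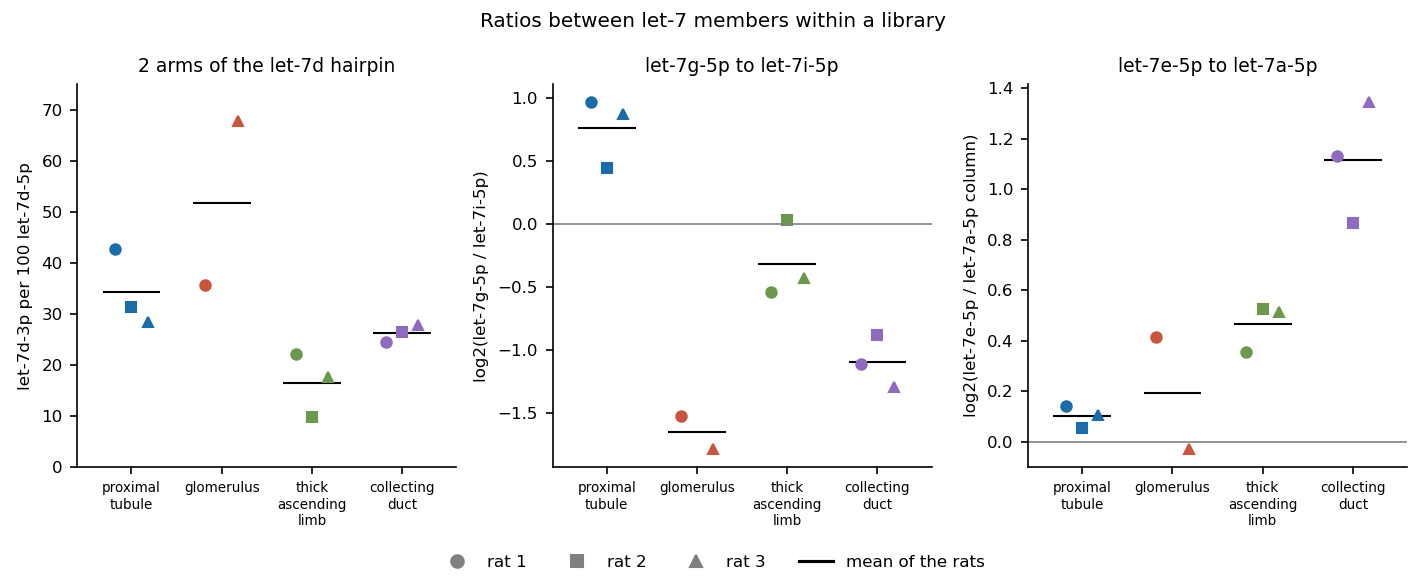
Ratios within each library by segment: let-7d-3p per 100 let-7d-5p (left), and the log2 ratios of let-7g-5p to let-7i-5p (middle) and of let-7e-5p to the let-7a-5p column (right); symbols are rats and the bar is the mean. Thick ascending limb is lowest at 9.80 to 22.1 on the left, the 4 segments do not overlap in the middle, and collecting duct is highest at 0.87 to 1.35 on the right.

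The listed partners of let-7 were not called in the tests over 4 segments. They are the 4 other let-7 3p arms and 10 arms of miR-98, miR-99, miR-100 and miR-125, not all of which lie close to a let-7 gene: Mir125b1 and Mir125b2 lie more than 10000 bases from any of those placed here. Of these 14, 0 were called by limma in any of the 11 tests on all 4 segments, where 2.13 to 24.5% of all miRNAs were called per test. In 10 of their 154 tests the unadjusted p was under 0.05, which 24 to 68 of the 188 miRNAs reached in each test. miR-99b-5p and miR-125a-5p, which flank let-7e, averaged 1283 ± 168 and 3868 ± 727 in collecting duct, against 1002 ± 216 and 2463 ± 385 in thick ascending limb and 1371 ± 210 and 2395 ± 464 in proximal tubule. miR-125a-5p thus had its highest mean in collecting duct, as let-7e did, and miR-99b-5p did not. miR-98-5p, the further holder of the let-7 seed, was far below the guide arms at 94.3 ± 37.8 in proximal tubule, 68.9 ± 69.3 in glomerulus, 66.2 ± 24.3 in thick ascending limb and 67.2 ± 17.2 in collecting duct.

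The remaining partners were modest or scarce. miR-99a-5p lay between 51.1 and 333 over the 11 libraries, miR-100-5p between 39.4 and 125, and miR-125b-5p between 70.3 and 322. miR-125b-2-3p lay between 7.29 and 82.7, and miR-99b-3p, miR-125a-3p and miR-125b-1-3p were at 25.3 or below. In the tubules alone, 1 of 14 was called in 1 of 3 pairs, let-7b-3p, lower in thick ascending limb than in collecting duct (−1.75 ± 0.60, limma adjusted p = 0.032), as well as in the F-test (0.048). Of all miRNAs, 13.8% were called in that pair and 27.7% by that F-test.

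Over the 11 libraries the guide arms moved together, with a median r of 0.85 among their 28 pairs. Without the rat 3 glomerulus the median was 0.62, the lowest pair let-7e and let-7g at −0.08. let-7d-3p correlated with the guide arms at a median r of 0.46 over 11 libraries, 0.72 without that glomerulus. Its closest guide arm was let-7d-5p, from the same hairpin, at 0.73 and 0.95. These libraries share rats and a scale, so r describes this table only.

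Among the 56 other miRNAs with a mean value of at least 100, those most like the mean of the 8 guide arms were miR-3596a (r = 0.963, which repeats the let-7a column), miR-99b-5p (0.955) and miR-130a-3p (0.935). Without the rat 3 glomerulus, miR-22-3p (0.968) and miR-26a-5p (0.941) came ahead of them. Those most like let-7d-3p were miR-22-3p (0.909), miR-181a-5p (0.872) and miR-3586-3p (0.861), and the same 3 led without that library. miR-22-3p averaged 25880 ± 7181 in proximal tubule, 16490 ± 7452 in glomerulus, 10030 ± 3060 in thick ascending limb and 18000 ± 4612 in collecting duct.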

How the data were processed

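Small RNA from laser-captured 8 µm frozen sections was sequenced as 50-base single reads, per the labels' protocols. The deposited signal values are counts per mature miRNA normalized by the trimmed mean of M values, and the submitters' processing notes name Partek 6.0, Bowtie2 2.2.5, Bowtie 1.0.0 and the build rn6, while sequences and positions here are from RefSeq on GRCr8. Strand handling is not given in the sources used here. The labels mark 4 glomerulus runs as removed, and they were not analysed here. Their titles name rat 3, as do the titles of the rat 3 glomerulus runs that were kept. Why that rat has a further set of glomerulus runs is not given in the sources used here. The place of the kept rat 3 glomerulus in the rat block therefore rests on its label alone. The 44 runs were averaged over 4 flow cells into 11 libraries.

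log2(value + 1) was fitted with limma 3.58.1 (R 4.3.3) on segment with rat as a block and a variance trend, and p-values were adjusted by Benjamini-Hochberg over 188 miRNAs at a threshold of 0.05. No filter on low values was used, so all 9 members entered. The replicate number is the rat. Deviations of libraries of 1 rat correlated at a median r of 0.03 (11 of 15 pairs above 0), against −0.01 between rats. With the rat as a random effect, limma's correlation between libraries of 1 rat was −0.158. The script was tested on simulated data. Python 3.11.15, pandas 2.3.3, numpy 2.4.6 and matplotlib 3.10.9 were used.

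The members and lists were chosen with earlier results of these data known. Named genes were the 9 members, their listed partners and the 3 miRNAs most like them by r among those with a mean of at least 100. Alternatives were other scalings, pseudocount 0.5, a minimum mean of 100, single flow cells, no variance trend, array weights, no block and leaving out each library or rat. The rescalings of the tubules alone, leaving out the glomeruli with a rat, and the summed let-7a columns were chosen after seeing the data.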

Additional observations from a re-analysis of the deposited data

How the results depend on the processing

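Of 9 F-tests, 36 tests of a segment against the rest and 54 pairs, 3, 4 and 3 were called. Without a variance trend limma called 0, 0 and 0 (1, 3 and 3 at an unadjusted p under 0.05), and let-7d-3p in thick ascending limb stayed at −1.75 with an adjusted p of 0.31. With a minimum mean value of 100 the counts against the rest and by pairs were 7 and 5. Median of ratios gave 8 and 9, and by pairs the same total gave 7, quantile normalization 10, flow cell A alone 5 and flow cell C alone 6. Array weights gave 5 by the F-test and 8 by pairs. On flow cell D alone let-7d-3p in thick ascending limb was −1.60 (limma adjusted p = 0.17). The cause of these shifts was not tested. For most alternatives, here, above and below, the share of all miRNAs called is not given, so the counts and calls show no change particular to let-7. By the F-test that share was 24.5% in the main fit, 27.7% in the 3 tubule segments alone and 3.72% in those without rat 1.

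The 3 tubule segments alone gave 5 by the F-test and 8 of 27 pairs, then 5 and 7 rescaled by median of ratios and 5 and 10 by the same total and 4 and 4 by quantile normalization. Leaving out the glomeruli and rat 1 gave 0 by the F-test and 0 by pairs (4 and 9 at an unadjusted p under 0.05), while leaving them out with rat 2 or rat 3 gave 6 and 5 by pairs.

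Leaving out 1 library or 1 rat gave 1 to 9 by the F-test, 2 to 22 against the rest and 1 to 29 by pairs. The highest counts came without the rat 1 glomerulus. The lowest were reached without the rat 2 proximal tubule and also without rat 2, and some of them without other libraries. let-7d-3p in thick ascending limb ran between −2.15 and −1.19. let-7b-5p in glomerulus against the rest ran from −2.65 to 0.18, and glomerulus minus thick ascending limb from −1.49 to 1.38 for let-7a-5p and from −2.10 to 1.33 for let-7e-5p. These reversals came without the rat 3 glomerulus (0.18, 1.33 and 1.30) and without rat 3 (0.18, 1.38 and 1.33).

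Without the replicate block the counts were 3, 5 and 4, and let-7d-3p in thick ascending limb stood at −1.79. let-7b-5p in proximal tubule (1.04, limma adjusted p = 0.048) and let-7d-3p in glomerulus minus thick ascending limb (1.77, limma adjusted p = 0.018) were called there as well, and no call was lost.

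With 2 or 3 rats a segment, and 112 reads behind the lowest let-7d-3p value, the precision of each difference is limited, and counting error covers only part of it.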
